A study of Mus musculus with 3 samples.

Results

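The 10 genes examined encode the enzymes and chaperones of procollagen folding: P4ha1, P4ha2, P4hb, Plod1, Plod2, Plod3, P3h1, Crtap, Serpinh1 and Fkbp10. They were taken by symbol from the table of 26970 genes, all 10 were found, and each passed the filter on low values (a mean over the libraries of 1 FPKM or more). All 10 were lower in the condyles of Dspp+/- mice and of Dspp-/- mice than in WT, and their sum was 967 FPKM in WT, against 452 in Dspp+/- and 528 in Dspp-/-. Markers of osteoblasts and chondrocytes were lower in the same libraries. In bulk tissue, fewer cells of a type and less RNA per cell cannot be told apart, and the part of cell makeup in the lower enzyme levels was not tested. FPKM is the number of sequenced fragments divided by gene length and by library size.

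The libraries came from mandibular condyles of mice in the C57BL/6 background. For WT and Dspp+/-, the study's sequencing methods state 4-month-old mice and condyles taken with cartilage and subchondral bone joined. Those methods do not describe the Dspp-/- library. The WT group carried both Dspp alleles (+/+), the Dspp-/- group carried a global knockout of both, and the Dspp+/- group came from crossing the null mice with WT mice. Each genotype has 1 library, so no test between genotypes was possible, and every difference below is one between single libraries. Per the study's methods, tissue of 3 animals was pooled for WT and for Dspp+/-, while the number of animals behind the Dspp-/- library is not given there. Intervals are 95% Clopper-Pearson intervals on recovered fragment numbers, which cover counting error and not the spread between mice.

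Fragments recovered from the FPKM steps numbered from 20241576 to 23613621 per library. Mitochondrial genes took 9.60% of the WT fragments, against 16.6% in Dspp+/- and 16.2% in Dspp-/-. Taken alone, this lowers the FPKM of all other genes in the mutant libraries. Lower collagen genes act the other way: Col1a1 had 886750 fragments in WT, against 266335 in Dspp+/- and 527184 in Dspp-/-. The median log2 ratio to WT over all compared genes was 0.058 in Dspp+/- and 0.007 in Dspp-/-. Osteoblast, chondrocyte and fibroblast markers were all detected in the 3 libraries, except that the chondrocyte gene Matn1 was at or under 3 fragments in each. Xist, the RNA of the inactive X chromosome, had 2 fragments in WT, whereas it had 12084 in Dspp+/- and 10563 in Dspp-/-, so sex and genotype cannot be told apart here. Dspp itself was not analysed here, so its level was not used to check the genotypes.

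Procollagen chains are modified and folded in the endoplasmic reticulum before they are secreted. Prolyl 4-hydroxylase gives the triple helix its thermal stability, lysyl hydroxylases prepare lysines for glycosylation and crosslinking, and the prolyl 3-hydroxylase complex modifies single prolines and acts as a chaperone. Serpinh1 encodes the collagen-specific chaperone that binds the folded triple helix, and Fkbp10 encodes a peptidyl-prolyl isomerase that assists folding and the lysyl hydroxylase of Plod2. Loss of Serpinh1, Crtap, P3h1 or Fkbp10 in humans causes recessive brittle bone disease.

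Promoter sequences were available in RefSeq for 8 of the 10 genes, in 9 windows, as P3h1 has a pair of starts. Those of the 2 genes among the 8 with the lowest and the 2 with the highest Dspp+/- to WT ratio are shown, to set the sequences beside the span of the ratios. Each run gives the 250 bases before the start, 5′ to 3′ on the gene's strand, in GRCm38.p6. Capitals mark, on either strand, the GC box with the letters GGGCGG, the CAAT box, which is spelled CCAAT, and the core of the hypoxia response element, which reads ACGTG.
P3h1, first start, chr4:119232665-119232914, plus strand: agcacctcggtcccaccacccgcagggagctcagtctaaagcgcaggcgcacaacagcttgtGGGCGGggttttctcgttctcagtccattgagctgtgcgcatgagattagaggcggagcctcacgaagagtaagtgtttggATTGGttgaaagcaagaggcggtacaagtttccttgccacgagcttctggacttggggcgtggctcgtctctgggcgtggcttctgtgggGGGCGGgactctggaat
P3h1, second start, chr4:119233579-119233828, plus strand: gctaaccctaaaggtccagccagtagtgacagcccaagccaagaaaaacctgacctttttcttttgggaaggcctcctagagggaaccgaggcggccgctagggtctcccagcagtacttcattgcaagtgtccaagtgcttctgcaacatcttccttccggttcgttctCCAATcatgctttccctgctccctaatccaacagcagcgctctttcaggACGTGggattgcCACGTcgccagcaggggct
Serpinh1, chr7:99353240-99353489, minus strand: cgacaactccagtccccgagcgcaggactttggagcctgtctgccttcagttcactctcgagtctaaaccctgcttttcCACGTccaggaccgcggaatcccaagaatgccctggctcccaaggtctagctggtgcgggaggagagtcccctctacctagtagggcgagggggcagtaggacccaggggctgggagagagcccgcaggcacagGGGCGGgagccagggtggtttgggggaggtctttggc
P4ha1, chr10:59323046-59323295, plus strand: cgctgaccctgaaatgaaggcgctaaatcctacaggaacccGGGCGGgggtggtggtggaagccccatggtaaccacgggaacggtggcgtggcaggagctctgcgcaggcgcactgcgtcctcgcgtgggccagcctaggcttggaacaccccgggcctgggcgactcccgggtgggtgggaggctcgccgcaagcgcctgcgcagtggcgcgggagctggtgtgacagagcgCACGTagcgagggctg
Plod3, chr5:136986769-136987018, plus strand: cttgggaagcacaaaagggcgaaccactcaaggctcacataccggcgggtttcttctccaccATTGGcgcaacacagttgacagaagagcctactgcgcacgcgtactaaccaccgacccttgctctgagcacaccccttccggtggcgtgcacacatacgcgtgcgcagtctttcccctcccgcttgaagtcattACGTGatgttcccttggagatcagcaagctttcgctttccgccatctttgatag

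A GC box was found on either strand in 6 of the 9 windows, against 33.0% of 32536 windows over all genes. The hypoxia core was in 6 of the 9, against 16.7%, and a CAAT box was in 4, against 33.8%. The 9 windows held from 53.6% to 70.0% G and C, while the median over all windows was 52.4%, and both the GC box and the hypoxia core contain CG. The TATA box TATAAA was in 2 of 9, against 12.3% of all windows. Neither the heat shock element GAANNTTC (6.72% of all windows) nor the endoplasmic reticulum stress element (0.114%) was found in the 9 windows. These are matches of letters in a short window, and factor binding was not measured.

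In WT the members spanned from 14.2 to 428 FPKM. Serpinh1 was first at 428 FPKM, above 99.6% of the 13026 genes that passed the filter, and made up 44.2% of the members' sum. P4hb followed at 196 FPKM, then Crtap at 80.2, Fkbp10 at 72.8, Plod2 at 66.1, P4ha1 at 36.3, P3h1 at 32.9, Plod1 at 21.4, Plod3 at 18.9 and P4ha2 at 14.2 FPKM. No pair of neighbours in this order had overlapping Poisson counting intervals. In Dspp+/- the order differed below Crtap. Fkbp10 (20.9 FPKM) stood under Plod2 (27.4) and P4ha1 (26.2), whose intervals overlapped each other, and P3h1 (11.1) was level with Plod1 (11.0) under Plod3 (15.6). In Dspp-/- the intervals of Crtap (46.4 FPKM) and Plod2 (43.8) overlapped, as did those of Plod3 (12.9) and Plod1 (12.8).

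**Figure D1:**
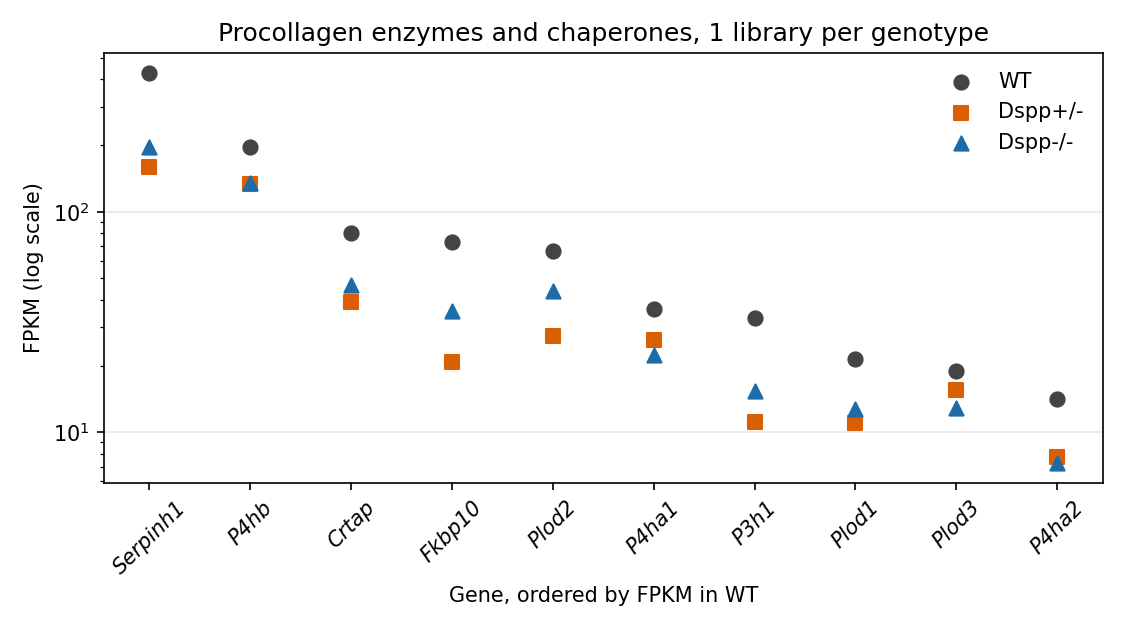
FPKM (log scale) of the 10 genes in the WT, Dspp+/- and Dspp-/- libraries, 1 point per library. Every WT point lies above both mutant points, from Serpinh1 at 428 FPKM down to P4ha2 at 14.2 FPKM.

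In Dspp+/- against WT, 5 of the 10 members were lower by 2-fold or more, measured on log2(FPKM + 1), and none was higher by as much. Of all 13026 genes compared, 2.86% were 2-fold lower and 4.88% were 2-fold higher. The members' median log2 ratio was -0.97 (from -1.75 to -0.26), while the median over all genes was 0.058. In Dspp-/- against WT, 3 members were at least 2-fold lower, against 1.37% of all genes, and none was higher, against 4.05%. The median log2 ratio was -0.74 (from -1.13 to -0.51), with 0.007 over all genes. At 1.5-fold, 7 members were lower in either comparison, against 8.95% of all genes in Dspp+/- and 8.21% in Dspp-/-, and none was higher, against 11.5% and 8.84%. Lower by any amount were 43.7% of all genes in Dspp+/- and 49.3% in Dspp-/-. Both comparisons use the same WT library, so the second is not independent of the first. The count of 3 in Dspp-/- rests on genes near the threshold: it was 1 with a pseudocount of 5 in place of 1, and 1 when mitochondrial genes were left out of the scaling, Serpinh1 being the gene that stayed.

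**Figure D2:**
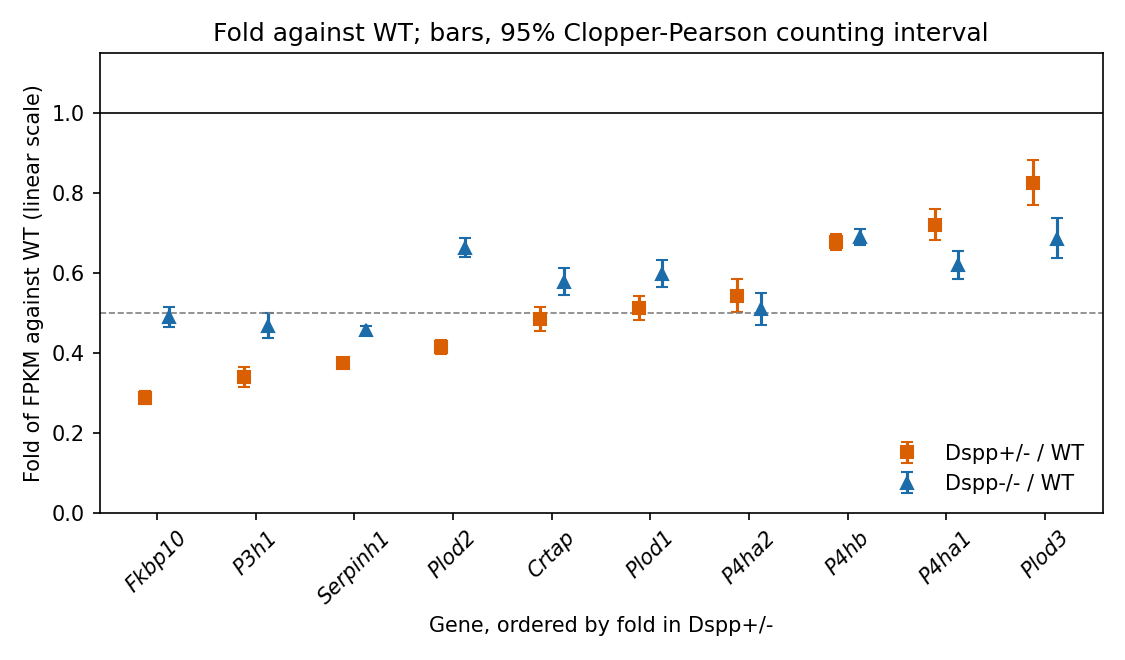
Fold of FPKM in Dspp+/- and Dspp-/- against WT for each gene (linear scale); bars are 95% Clopper-Pearson counting intervals, the solid line is no difference and the dashed line is 2-fold lower. All 20 folds lie under 1, from 0.287 (Fkbp10) to 0.824 (Plod3) in Dspp+/-, and 7 of the genes are lower in Dspp+/- than in Dspp-/-.

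The chaperones had the lowest summed ratio of the groups, at 0.362 of WT in Dspp+/- and 0.462 in Dspp-/-. Serpinh1 made up 428 of the 501 FPKM of this sum in WT. Serpinh1, on the minus strand of chromosome 7 from 98994583 to 99002446, was at 428 FPKM in WT, against 160 in Dspp+/- and 196 in Dspp-/-. Relative to WT this is 0.375 (interval 0.366 to 0.384) in Dspp+/- and 0.457 (0.447 to 0.468) in Dspp-/-. Both mutant libraries were thus nearer to each other than to WT. Fkbp10, on the plus strand of chromosome 11 from 100306523 to 100315650, was at 72.8 FPKM in WT, against 20.9 in Dspp+/- and 35.6 in Dspp-/-. It had the lowest fold of all members in Dspp+/-, 0.287 (0.271 to 0.305), and 0.489 (0.465 to 0.514) in Dspp-/-. Of its exon length, 6.58% overlaps Nt5c3b on the other strand in GENCODE M21, and the library kit is not stated to keep strand. Positions are given as in the deposited table, which names no build. They are not GRCm38 positions, since only 589 of 26652 genes share both ends with GENCODE M21, and must not be read together with the promoter coordinates above.

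The summed FPKM of P3h1 and Crtap, the members from the prolyl 3-hydroxylase complex, was at 0.441 of WT in Dspp+/- and 0.546 in Dspp-/-. P3h1, which carries the catalytic activity, lies on the plus strand of chromosome 4 from 119090112 to 119106172. It was at 32.9 FPKM in WT, against 11.1 in Dspp+/- and 15.4 in Dspp-/-, folds of 0.339 (0.315 to 0.364) and 0.468 (0.437 to 0.500). Crtap, the non-catalytic partner of P3h1, lies on the minus strand of chromosome 9 from 114204202 to 114219743. Its FPKM was 80.2, 38.8 and 46.4, with folds of 0.484 (0.455 to 0.514) and 0.578 (0.545 to 0.613). The partners were not lower by the same factor. P3h1 per Crtap was 0.410 in WT, 0.287 in Dspp+/- and 0.332 in Dspp-/-. That ratio, which no scaling of the library alters, was at 0.700 of WT in Dspp+/- (counting interval 0.637 to 0.770) and 0.809 in Dspp-/- (0.740 to 0.884). Ppib, the cyclophilin of this complex, had 20.8, 10.8 and 13.8 FPKM, and P3h1 per Ppib was at 0.653 (0.584 to 0.731) and 0.706 (0.635 to 0.783) of its WT value.

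The 3 lysyl hydroxylases summed to 106 FPKM in WT, against 53.9 in Dspp+/- and 69.5 in Dspp-/-. Plod2, which acts on the telopeptide lysines that form the crosslinks of bone, lies on the plus strand of chromosome 9 from 92424276 to 92490481. It was at 66.1 FPKM in WT, against 27.4 in Dspp+/- and 43.8 in Dspp-/-, so its folds of 0.414 (0.398 to 0.432) and 0.662 (0.639 to 0.686) were far apart. Plod1, which acts on lysines of the helix, lies on the minus strand of chromosome 4 from 147994210 to 148021224. It had 21.4, 11.0 and 12.8 FPKM, with folds of 0.512 (0.482 to 0.543) and 0.598 (0.564 to 0.633). Plod3, whose protein also has glycosyltransferase activity, lies on the plus strand of chromosome 5 from 137015873 to 137025502. It had 18.9, 15.6 and 12.9 FPKM, with folds of 0.824 (0.770 to 0.882) and 0.685 (0.637 to 0.737), the highest fold of all members in Dspp+/-. The proportions of the 3 RNAs therefore differed between the Dspp+/- library and the WT library. Plod2 per Plod3 was 3.50 in WT, 1.76 in Dspp+/- and 3.39 in Dspp-/-, which is 0.503 of WT in Dspp+/- (0.465 to 0.544) and 0.966 in Dspp-/- (0.892 to 1.05). Part of the exons of 2 of these genes overlaps other genes, 6.42% for Plod2 and 11.9% for Plod3.

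By summed FPKM, prolyl 4-hydroxylase was the group nearest to WT in Dspp+/-, with ratios of 0.675 there and 0.669 in Dspp-/-. P4hb made up 196 of the 247 FPKM of this sum in WT, so the group ratio mostly follows that gene. P4ha1 and P4ha2 encode alternative catalytic subunits. P4ha1, on the plus strand of chromosome 10 from 59159118 to 59209126, was at 36.3 FPKM in WT, against 26.2 in Dspp+/- and 22.5 in Dspp-/-, with folds of 0.720 (0.683 to 0.759) and 0.619 (0.585 to 0.655). P4ha2, on the plus strand of chromosome 11 from 53990921 to 54022491, was at 14.2, 7.73 and 7.25 FPKM, with folds of 0.543 (0.503 to 0.585) and 0.509 (0.470 to 0.550). P4ha1 per P4ha2 was thus higher in both mutant libraries than in WT, with 2.55 in WT, 3.38 in Dspp+/- and 3.11 in Dspp-/-. P4hb encodes the subunit that both share, which is also protein disulfide isomerase and serves many secreted proteins. It lies on the minus strand of chromosome 11 from 120451124 to 120464079. It had 196, 133 and 135 FPKM, with folds of 0.677 (0.658 to 0.696) and 0.689 (0.670 to 0.709). Serpinh1 per P4hb was 2.18 in WT, 1.21 in Dspp+/- and 1.45 in Dspp-/-, so the distance between the 2 most abundant members was smaller in both mutant libraries. P4hb accordingly held 20.3% of the members' sum in WT and 29.4% in Dspp+/-.

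Set against each other, Dspp+/- was lower than Dspp-/- in 7 of the 10 members, and the median log2 ratio was -0.23, against 0.037 over all genes and 44.7% of genes lower by any amount. No member was 2-fold lower or higher, against 0.852% and 0.798% of all genes. At 1.5-fold, 2 members were lower in Dspp+/-, against 3.39% of all genes, and none was higher, against 4.32%. These were Fkbp10, at 0.588 (0.550 to 0.628) of its Dspp-/- level, and Plod2, at 0.626 (0.600 to 0.654), which the protein of Fkbp10 assists. Fkbp10 per Plod2 was 0.763 in Dspp+/-, 0.813 in Dspp-/- and 1.10 in WT. The closeness of the mutant values follows from naming these genes for their similar ratios, and a link between them was not tested. The ratio of P4hb, 0.982 (0.953 to 1.01), and that of P4ha2, 1.07 (0.979 to 1.16), were within counting error of 1. P4ha1 at 1.16 (1.10 to 1.23) and Plod3 at 1.20 (1.12 to 1.29) were higher in Dspp+/-.

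The 11 fibrillar collagen genes, whose products these enzymes act on, summed to 11415 FPKM in WT, against 2878 in Dspp+/- and 6092 in Dspp-/-, which is 0.252 and 0.534 of WT. Each member was expressed as FPKM per 1000 FPKM of these genes, a ratio that does not depend on the scaling of the library. In Dspp+/- all 10 members were higher on this scale than in WT, with a median log2 ratio of 0.98. Any gene with a fold above 0.252 is higher on it, as the collagen sum was at 0.252 of WT. On log2(FPKM + 1), only 0.353% of all genes had a ratio at or under that of Fkbp10, the lowest member. The count of 10 is therefore not particular to the members. Plod3 went from 1.65 to 5.41, a ratio of 3.27, P4ha1 from 3.18 to 9.09 (2.86) and P4hb from 17.2 to 46.2 (2.68). The collagen-specific Serpinh1 went from 37.5 to 55.7 (1.49), P3h1 from 2.88 to 3.87 (1.34) and Fkbp10 from 6.38 to 7.27 (1.14). Fkbp10 and P3h1 were thus the members whose ratio was nearest to that of the collagens. In Dspp-/-, 6 members were higher and 4 were lower per collagen FPKM, with a median of 0.14 and ratios from 0.856 (Serpinh1) to 1.29 (P4hb). The 4 lower ones were Serpinh1, P3h1, Fkbp10 and P4ha2. On log2(FPKM + 1), 2.16% of all genes had a Dspp-/- ratio at or under that of P4ha2, the highest of these 4. For Crtap, the lowest of the 6, this share was 3.49%. Most genes of the table were thus higher per collagen FPKM in Dspp-/-, as the collagen sum was at 0.534 of WT. Type I collagen made up most of the sum, with 9455 FPKM in WT, against 2418 in Dspp+/- and 5106 in Dspp-/-. Col1a1 alone was at 6675, 1719 and 3610 FPKM, and Col2a1, the main cartilage collagen, at 761, 94.2 and 308.

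**Figure D3:**
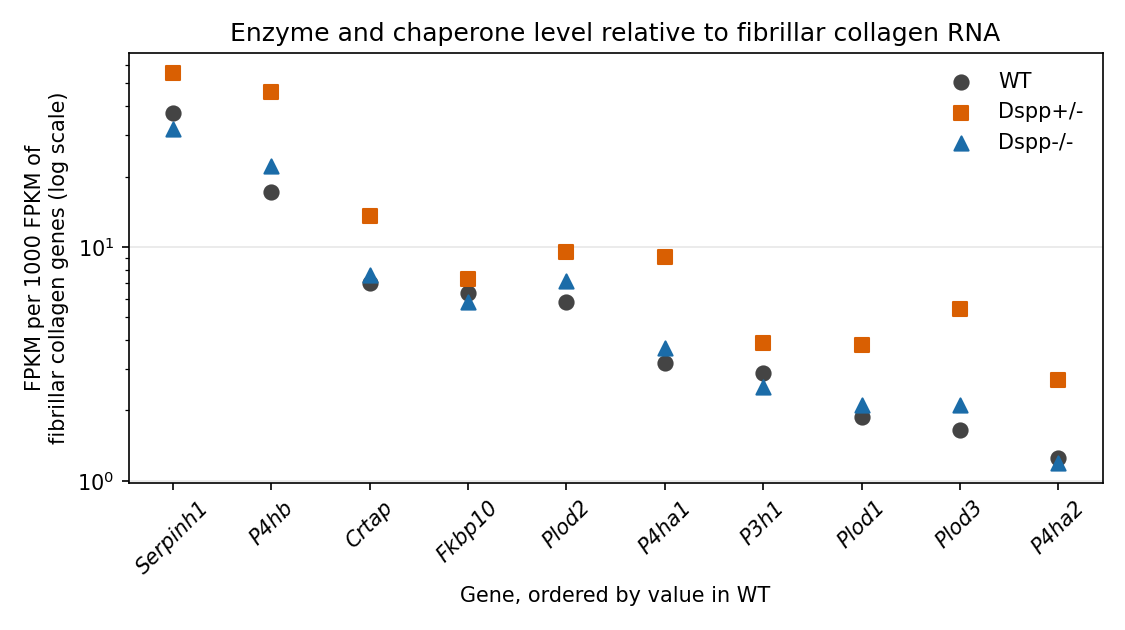
FPKM of each gene per 1000 FPKM of the 11 fibrillar collagen genes (log scale), 1 point per library. All 10 Dspp+/- points lie above WT, Plod3 most (5.41 against 1.65) and Fkbp10 least (7.27 against 6.38), while the Dspp-/- points lie close to WT on either side. The collagen sum was at 0.252 of WT in Dspp+/- and 0.534 in Dspp-/-, so any gene with a higher fold lies above WT here.

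Other genes that act on procollagen in the endoplasmic reticulum or carry it out were described from a list of 24, all of which passed the filter. In Dspp+/- 8 were at least 2-fold lower, against 2.86% of all genes, and none was at least 2-fold higher, against 4.88%. In Dspp-/- 4 were lower, against 1.37%, and none was higher, against 4.05%. The median log2 ratio was -0.80 in Dspp+/- and -0.54 in Dspp-/-. The 8 were P3h3, P3h4, Fkbp7, Fkbp9, Fkbp14, Rcn3, Kdelr3 and Creb3l1. P3h3 and P3h4 encode proteins that form a complex with the lysyl hydroxylase of Plod1. P3h3 was at 28.8 FPKM in WT, against 12.4 in Dspp+/- and 13.2 in Dspp-/-, and P3h4 at 38.2, 15.1 and 17.0. Creb3l1, a transcription factor that activates collagen and secretory genes in osteoblasts, had 51.9, 17.1 and 21.4 FPKM, a fold of 0.329 (0.306 to 0.353) in Dspp+/- and 0.412 (0.385 to 0.441) in Dspp-/-. Kdelr3, a receptor that returns proteins to the endoplasmic reticulum, had the lowest log2 ratio of the list in Dspp+/-, -1.65, with 40.4, 12.2 and 21.5 FPKM. Rcn3, a calcium-binding protein of the same compartment, had 145, 53.7 and 70.8 FPKM, and the isomerase genes Fkbp7, Fkbp9 and Fkbp14 had folds of 0.330, 0.468 and 0.390 in Dspp+/- and 0.639, 0.648 and 0.642 in Dspp-/-.

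The remaining genes of this list did not reach 2-fold lower on log2(FPKM + 1) in either mutant library, although the plain FPKM folds of Kdelr2 (0.494) and Slc39a13 (0.497) in Dspp+/- were just past it. The collagen galactosyltransferase genes Colgalt1 and Colgalt2 had folds of 0.816 (0.769 to 0.866) and 0.589 (0.540 to 0.643) in Dspp+/-. P4ha3 and P3h2, further prolyl hydroxylase genes, had 5.36 and 12.6 FPKM in WT and 3.12 and 7.85 in Dspp+/-. The zinc transporter gene Slc39a13 had a fold of 0.497 in Dspp+/- and 0.527 in Dspp-/-. Among export genes, Sec24d of the vesicle coat was at 0.500 of WT in Dspp+/-, Sec31a at 0.601, Sec13 at 0.709 and Sec23a at 0.748, while Mia3, the cargo receptor for large collagens, was at 0.901 (0.845 to 0.961). Kdelr2 had 73.1 FPKM in WT and 36.1 in Dspp+/-. Tmem38b, which encodes a potassium channel of the endoplasmic reticulum, Sar1b, Mia2 and Klhl12 were the 4 genes above WT in Dspp+/-, with 15.2 and 22.1 FPKM for Tmem38b and 88.7 and 117 for Sar1b.

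**Figure D4:**
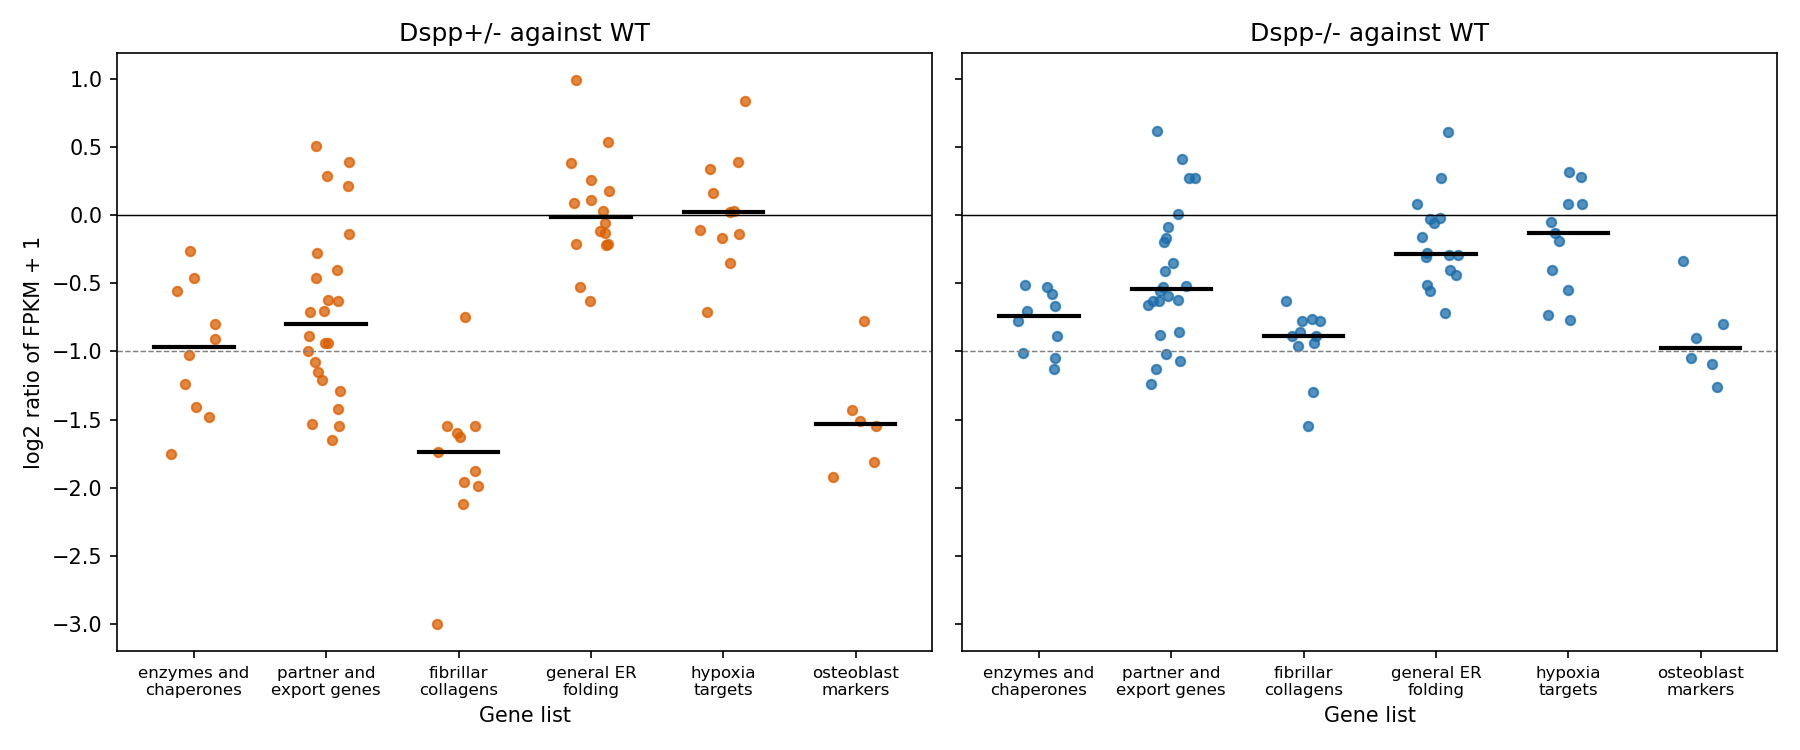
Log2 ratios of FPKM + 1 against WT for the genes of 6 lists, 1 point per gene that passed the filter, in Dspp+/- (left) and Dspp-/- (right); black bars are list medians and the dashed line is 2-fold lower. The medians of the enzymes and chaperones (-0.97 and -0.74) lie between those of the fibrillar collagens (-1.74 and -0.89) and of the general folding genes (-0.02 and -0.28).

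General folding genes of the endoplasmic reticulum, which serve all secreted proteins, lay around a median log2 ratio of -0.02 (Dspp+/-) and -0.28 (Dspp-/-). None of the 16 was at least 2-fold lower in either, against 2.86% and 1.37% of all genes, so a count of none is near these shares. Calr, the calreticulin gene and the most abundant of them in WT, was at 103 FPKM in WT, against 105 in Dspp+/- and 69.7 in Dspp-/-. Sec61a1, of the translocation channel, had the lowest ratio in Dspp+/- (20.3 FPKM in WT, against 12.8), and Sdf2l1 the highest (7.22 FPKM in WT, against 15.4, and 5.72 in Dspp-/-). Serpinh1 per Hspa5, the gene of the main general chaperone, was 7.26 in WT, 2.26 in Dspp+/- and 3.38 in Dspp-/-. This is 0.312 (0.298 to 0.325) of the WT ratio in Dspp+/- and 0.466 (0.445 to 0.487) in Dspp-/-. Of 12 genes induced by low oxygen, as P4ha1, P4ha2 and Plod2 are known to be, 11 passed the filter. Their median log2 ratio was 0.02 in Dspp+/- and -0.13 in Dspp-/-. None was 2-fold lower or higher, which is near the shares of all genes. These shares were 2.86% lower and 4.88% higher in Dspp+/-, and 1.37% and 4.05% in Dspp-/-. Ldha had 174 FPKM in WT and 158 in Dspp+/-, Ndrg1 had 31.6 and 18.9, and Egln3 had 24.6 and 44.9.

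Marker genes were summed to describe the cell makeup. The summed FPKM of 6 osteoblast markers was at 0.281 of WT in Dspp+/- and 0.490 in Dspp-/-, whereas that of 6 chondrocyte markers was at 0.149 and 0.433. Col2a1, which is also one of the fibrillar collagens, made up 83.6% of the chondrocyte sum in WT, and without it the sum was at 0.275 of WT in Dspp+/- and 0.575 in Dspp-/-. Among the osteoblast markers Ibsp, the bone sialoprotein gene, was at 1643 FPKM in WT, against 433 in Dspp+/- and 685 in Dspp-/-. The 6 markers of fibroblasts and tendon were nearer to WT, at 0.668 and 0.694, with Fmod, the fibromodulin gene, at 1032, 621 and 621 FPKM and Scx at 10.1, 5.32 and 4.66. Fmod made up 66.2% of this sum in WT, and without it the sum was at 0.799 and 0.875 of WT. Markers of blood-forming cells were higher, 5 erythroid genes at 4.43 and 4.60 times WT and 5 neutrophil genes at 4.50 and 5.63 times, led by Hbb-bs (425 FPKM in WT, 1794 in Dspp+/-) and S100a9 (232 and 916). Hbb-bs made up 97.9% of the erythroid sum in WT, and without it the sum was at 14.3 and 12.3 times WT. Slc4a1 (1.01 and 54.2 FPKM) and Elane (4.77 and 175) had the highest ratios of FPKM + 1 in these lists. Plasma cells, which also make much protein disulfide isomerase, are marked by 6 genes whose sum was at 0.985 and 1.00 of WT. Xbp1 made up 48.2% of this sum in WT, and without it the sum was at 0.914 and 0.975 of WT. The sum joins genes that went opposite ways. Jchain had 15.4, 28.4 and 26.0 FPKM, Xbp1 had 39.7, 42.2 and 41.0, and Sdc1, which other cells also express, had 23.6, 7.79 and 12.5. Mzb1 had only 2, 13 and 9 fragments, and Tnfrsf17 had 3, 5 and 7. The endothelial sum was at 1.13 and 1.09 of WT (Cdh5 with 48.9 FPKM in WT and 56.2 in Dspp+/-, Kdr with 10.9 and 15.0, Emcn with 6.01 and 5.07) and the sum of 5 skeletal muscle genes at 1.38 and 1.17, with Acta1 at 5609 and 8162 FPKM and Myh4 at 124 and 18.2. Without Acta1 the muscle sum was at 1.24 and 0.959 of WT. The part of these cell types in the values of the enzymes was not tested.

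Among the 4039 genes averaging 10 FPKM or more, the 5 non-members nearest to the members' median in both log2 ratios to WT, over 3 libraries, were Cnpy2, Fscn1, Ptprs, Spns2 and Fads3. Cnpy2 was nearest, at a distance of 0.011 log2 units, with 32.5 FPKM in WT, against 16.2 in Dspp+/- and 19.2 in Dspp-/-. Fscn1 had 27.0, 13.0 and 15.9 FPKM, and the other distances ran from 0.033 to 0.052.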

How the data were processed

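RNA was sequenced from mandibular condyles of WT, Dspp+/- and Dspp-/- mice, 1 library per genotype, as poly(A)-selected, paired reads of 150 bases. The library kit is not stated to keep strand. The labels speak of triplicates, but the authors deposited 1 value per gene and genotype. These deposited values carry no unit name and were read as FPKM, because FPKM times merged exon length in GENCODE M21 is a whole multiple of 1 step per library (within 0.05 fragments for 98.6% to 98.7% of values under 100 fragments). The submitters' processing notes name FastQC 0.11.5, HISAT2 2.1.0, StringTie 1.3.3b, DESeq 1.28.0 and the human build hg38, without roles, whereas identifiers and symbols are those of mouse. Filters are not given in the sources used here.

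Genes averaging 1 FPKM or more were compared as log2 ratios of FPKM + 1, which understates differences of low genes, and called at 2-fold. With 1 library per genotype, no p-value is given. Recovered fragments gave Clopper-Pearson intervals on folds, Poisson intervals on levels and log-scale intervals on ratios of ratios, all for counting error only. Against a library at or under 3 fragments no fold is given. Recovery and folds were tested on simulated data. Members of the group and all lists were chosen with earlier results of these data known. Named are all members, the 24 further collagen genes, the most abundant, highest and lowest gene of each other list, and the 5 nearest genes; Hspa5 and Ppib serve as denominators, and Xist and Matn1 were named after their values were seen. Promoters came from RefSeq (GRCm38.p6). Other settings tried covered pseudocounts, scalings, fold thresholds, filters and denominators. Computations used scipy 1.17.1, pandas 2.3.3 and numpy 2.4.6 under Python 3.11.15, and plots matplotlib 3.10.9.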

Additional observations from a re-analysis of the deposited data

How the results depend on the processing

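For each of the 10 genes and each of the 3 comparisons, the log2 ratio was computed under 2 other pseudocounts and 5 other scalings. Its sign stayed the same (70 of 70 values in each comparison), but a pseudocount cannot change a sign. The scalings moved log2 ratios to WT by -0.14 to 0.12, less than any member's own ratio (Plod3 in Dspp+/-, at -0.26, was nearest to WT). The signs against WT therefore could not change, and keeping them is no sign of robustness. Values ran from -1.89 to -0.15 in Dspp+/- against WT, from -1.19 to -0.41 in Dspp-/- against WT and from -0.81 to 0.27 in Dspp+/- against Dspp-/-. The median in Dspp+/- against WT, -0.97, was -0.84 with a pseudocount of 5, -1.10 with housekeeping genes as the scale and -0.86 with mitochondrial genes left out of the scale. In Dspp-/- the median of -0.74 was -0.62 with a pseudocount of 5 and -0.63 without mitochondrial genes. Leaving out mitochondrial genes moved the median of all genes to 0.15 in Dspp+/- and 0.10 in Dspp-/-. At 4-fold, 0 members were lower in either comparison. The share of all genes at 4-fold is not given, so that count is not read as a result about the members. In Dspp-/-, 7 members were lower at 1.5-fold, against 8.21% of all genes. The count of 3 at 2-fold was 1 with a pseudocount of 5 and 1 without mitochondrial genes. With osteoblast markers in place of fibrillar collagens as the denominator, the median log2 ratio was 0.82 in place of 0.98 in Dspp+/- and 0.26 in place of 0.14 in Dspp-/-. The cause of these shifts was not tested, apart from the pseudocount and the threshold, which act by construction. Without the 3 members whose exons overlap another gene, an alternative chosen after seeing the data, the medians were -0.91, -0.78 and -0.21 in the 3 comparisons. The marker sums without their most abundant gene were also added after seeing the data. No paired analysis was possible because each genotype has 1 library. Depth limits only rare genes here, since each member had over 1000 fragments in every library.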
